A study of Homo sapiens with 2 samples.

Results

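The miR-181 family in A549 cells is described here through 7 mature miRNAs, 4 from the 5p arm (hsa-miR-181a-5p, hsa-miR-181b-5p, hsa-miR-181c-5p and hsa-miR-181d) and 3 from the 3p arm (hsa-miR-181a-3p, hsa-miR-181a-2-3p and hsa-miR-181c-3p), named without the prefix from here on. They were chosen by name and are 7 of the 859 mature miRNAs in a table of 5475 small RNA features, and each of the 7 names is listed. A549 is a human lung adenocarcinoma cell line. The cells were grown in DMEM medium with fetal calf serum and kept for 24 h in normoxia (20% oxygen) or in hypoxia (1.2% oxygen), without any other treatment. Small RNA was sequenced from 1 library per condition, so differences between conditions are differences between these libraries, without any replicate check or test. The counts on mature miRNAs summed to 4514818 (normoxia) and 8600160 (hypoxia). Levels are given as CPM, the counts of a miRNA scaled to 1000000 counts on mature miRNAs in its library. Each is followed by its 95% interval (Clopper-Pearson, exact), which covers the error of counting and nothing else. The RNA is bulk RNA, so a change in the number of cells that hold a miRNA and a change in its amount per cell cannot be told apart.

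A miRNA hairpin is cut into a short duplex, and usually 1 of its arms is loaded into an Argonaute protein as the guide while the other is degraded. Bases 2 to 8 of the guide, the seed, pair with target messenger RNAs and largely set which transcripts are repressed. The miR-181 family is conserved among vertebrates and is best known from lymphocytes, where miR-181a tunes the sensitivity of the T-cell receptor, from the brain, and from epithelial tumours, where it has been tied to TGF-β signalling. Members of the family also stand on classical lists of miRNAs that respond to low oxygen in carcinoma cells.

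The mature sequences of the 5p members are shown with the seed in capitals, because a common seed is what makes them a family and because the few bases that differ decide how well their reads can be told apart. They are taken from RefSeq (GRCh38.p14), and the deposited sequences equal them once the flanking base at each end is removed.
miR-181a-5p: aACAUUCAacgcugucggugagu
miR-181b-5p: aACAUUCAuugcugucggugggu
miR-181c-5p: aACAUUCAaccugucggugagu
miR-181d: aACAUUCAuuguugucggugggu

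All 4 carried the seed ACAUUCA. Of the 850 listed mature miRNAs with a deposited sequence, none outside the family had this seed. In RefSeq, miR-4262 shares it, and that name is not listed in the table. Seeds of listed miRNAs were read from the deposited sequences without the flanking bases. Of these 850 sequences, 725 equal a mature sequence in RefSeq. The seeds of the rest were not checked, which also holds for the seed comparisons below. Outside the seed the 5p members fall into 2 close pairs. miR-181d differed from miR-181b-5p by the single substitution C12U (positions counted from the 5′-end, the base of miR-181b-5p first). miR-181c-5p equals miR-181a-5p with 1 base removed, an edit distance of 1. Between the pairs, miR-181b-5p differed from miR-181a-5p by A9U, C10U and A21G. The sources used here do not say how reads that fit both members of a pair were assigned, so the counts within the pairs miR-181b-5p with miR-181d and miR-181a-5p with miR-181c-5p are uncertain as separate measurements.

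The 3p members are shown in the same way, with miR-181b-3p, a 3p arm of miR-181b that is in the table but outside the list of members. Here the seeds differ, so the 3p arms do not form a seed family.
miR-181a-3p: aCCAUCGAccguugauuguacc
miR-181a-2-3p: aCCACUGAccguugacuguacc
miR-181c-3p: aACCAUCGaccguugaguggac
miR-181b-3p: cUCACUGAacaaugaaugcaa

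miR-181a-3p and miR-181a-2-3p, the 3p arms of the miR-181a hairpins, differed by U5C, C6U and U16C, and the first 2 of these lie in the seed. miR-181c-3p matched miR-181a-3p at 19 of 21 bases when its start was moved by 1 base, so that its seed covers nearly the same stretch in a frame shifted by a single position. None of these 3p seeds was found in another listed miRNA.

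The family is encoded by 6 hairpins in 3 clusters (coordinates in GRCh38, GENCODE version 29). MIR181A1 (chromosome 1, 198859044 to 198859153) and MIR181B1 (198858873 to 198858982) lie on the minus strand, 61 bases apart, in an intron of the lincRNA gene MIR181A1HG. MIR181A2 (chromosome 9, 124692442 to 124692551) and MIR181B2 (124693710 to 124693798) lie on the plus strand, 1158 bases apart, in an intron of the antisense RNA gene MIR181A2HG and, on the opposite strand, of the protein-coding gene NR6A1. MIR181C (chromosome 19, 13874699 to 13874808) and MIR181D (13874875 to 13875011) lie on the plus strand 66 bases apart, in introns of 2 of the 4 annotated transcripts of the protein-coding gene NANOS3. The deposited table uses hg19 and lists each mature miRNA once, with miR-181a-5p at chromosome 1, 198828236 to 198828260, which includes the flanking bases. The hairpins MIR181A1 and MIR181A2 are shown with their mature arms in capitals, because they carry the same 5p arm, so that of their mature arms only the 3p arm tells them apart.
MIR181A1: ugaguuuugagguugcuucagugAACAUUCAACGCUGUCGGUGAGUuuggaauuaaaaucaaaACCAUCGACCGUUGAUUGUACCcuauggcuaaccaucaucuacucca
MIR181A2: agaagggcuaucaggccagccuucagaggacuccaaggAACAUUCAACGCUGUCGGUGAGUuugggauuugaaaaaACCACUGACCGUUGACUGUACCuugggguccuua

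The counts on miR-181a-5p, and likewise those on miR-181b-5p, therefore cannot be split between chromosome 1 and chromosome 9.

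miR-181a-5p and miR-181b-5p carried almost all counts of the family. miR-181a-5p, the guide of both miR-181a hairpins, had 21518 counts in normoxia (4766 CPM, interval 4703 to 4830) and 51100 in hypoxia (5942 CPM, 5890 to 5993). It ranked 15 of 859 in either library. miR-181b-5p had 17985 counts in normoxia (3984 CPM, 3926 to 4042) and 28872 in hypoxia (3357 CPM, 3319 to 3396), and its rank went from 20 to 25. The counts of these members were high enough that the intervals of the conditions lie apart for each of them, upward in hypoxia for miR-181a-5p and downward for miR-181b-5p.

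The members of the chromosome 19 cluster were far less abundant. miR-181d had 417 counts in normoxia (92.4 CPM, 83.7 to 102) and 1234 in hypoxia (143 CPM, 136 to 152), moving from rank 154 to rank 129. miR-181c-5p had 315 counts (69.8 CPM, 62.3 to 77.9) and 567 counts (65.9 CPM, 60.6 to 71.6), at ranks 175 and 179. The intervals of the conditions were apart for miR-181d and overlapped for miR-181c-5p.

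The 3p arms were rarer still. miR-181a-2-3p, from chromosome 9, had 90 counts in normoxia (19.9 CPM, 16.0 to 24.5) and 247 in hypoxia (28.7 CPM, 25.3 to 32.5). miR-181a-3p, from chromosome 1, had 71 counts (15.7 CPM, 12.3 to 19.8) and 159 counts (18.5 CPM, 15.7 to 21.6). miR-181c-3p had 4 counts in normoxia (0.886 CPM, 0.241 to 2.27) and 16 in hypoxia (1.86 CPM, 1.06 to 3.02). The order from miR-181a-5p through miR-181b-5p, miR-181d, miR-181c-5p, miR-181a-2-3p and miR-181a-3p to miR-181c-3p was thus the same in the libraries, and neighbours in this order had separate intervals within each library, except for the miR-181a 3p arms in normoxia, whose intervals overlapped. Yield in ligation-based libraries differs between sequences, so levels of different miRNAs compare counts and not molecules.

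**Figure D1:**
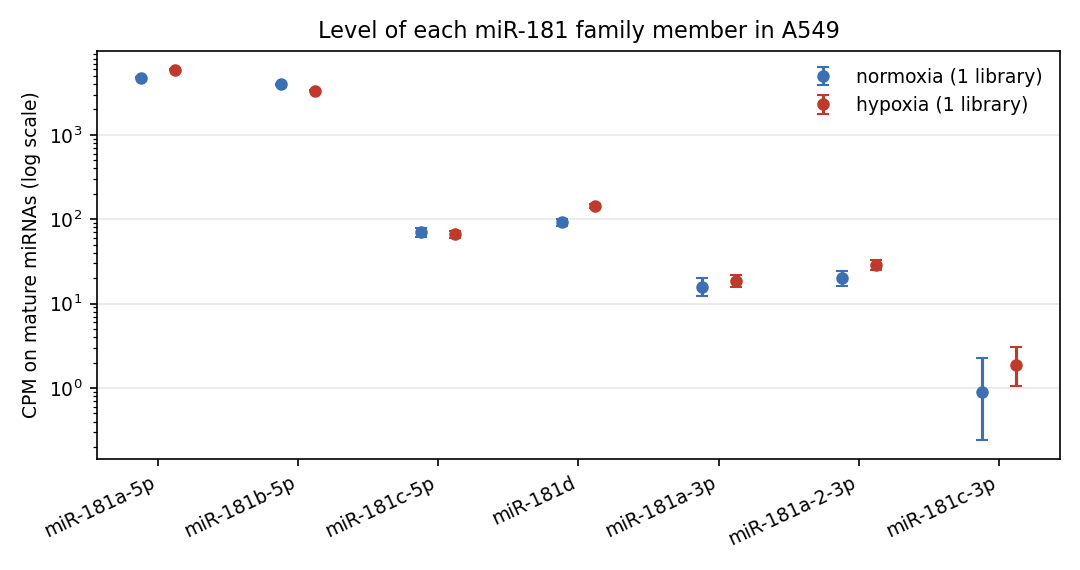
CPM of the 7 members (log scale) in the normoxia library (blue) and the hypoxia library (red), with exact 95% counting intervals. The levels run from 4766 and 5942 CPM for miR-181a-5p down to 0.886 and 1.86 CPM for miR-181c-3p, and within a member the libraries lie close to each other on this scale.

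Summed over the 4 5p arms, the normoxia library gave the family 0.891% of its mature miRNA counts (interval 0.8825% to 0.8999%), and the hypoxia library 0.951% (0.944% to 0.957%). When the listed mature miRNAs were grouped by seed, the family's seed ranked 11 of 700 seeds by counts in normoxia and 12 in hypoxia. The log2 ratio of hypoxia over normoxia for the summed arms was 0.09 (exact conditional binomial interval 0.08 to 0.11) when scaled by mature miRNA totals. It was -0.02 under TMM scaling, 0.02 with DESeq2 size factors, -0.00085 with the total of all counts and -0.10 without the most abundant miRNAs (the top 10 of either library) in the totals, so these data give the family as a whole no direction. The median log2 ratio of the 336 mature miRNAs with a mean log2 CPM above 3 was 0.08 on the same scale as the main value.

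Single members did differ in their ratios. miR-181d had the highest log2 ratio of the 5p arms at 0.64 (interval 0.47 to 0.80), a 1.55-fold higher level in hypoxia. miR-181a-5p was at 0.32 (0.30 to 0.34), or 1.25-fold. miR-181b-5p was at -0.25 (-0.27 to -0.22), a ratio of 0.843. For miR-181c-5p the value was -0.08 (-0.28 to 0.12), an interval that includes 0, while without the most abundant miRNAs in the totals it was -0.28 (-0.48 to -0.07), which leaves out 0. Each of these 4 kept its sign under the 4 other scalings, which gave 0.44 to 0.57 for miR-181d, 0.12 to 0.25 for miR-181a-5p, -0.44 to -0.32 for miR-181b-5p and -0.28 to -0.15 for miR-181c-5p.

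Among the 3p arms, miR-181a-2-3p had a log2 ratio of 0.53 (interval 0.17 to 0.89) and miR-181a-3p of 0.23 (-0.18 to 0.66). With 4 and 16 counts, miR-181c-3p had a value of 1.07 with an interval from -0.56 to 3.11. The intervals of miR-181a-3p and miR-181c-3p include 0, and so does that of miR-181a-2-3p without the most abundant miRNAs in the totals (0.33, -0.02 to 0.70). miR-181b-3p, outside the list of members, was lower in hypoxia, with 18 counts in normoxia (3.99 CPM) and 10 in hypoxia (1.16 CPM), a log2 ratio of -1.78 (-3.06 to -0.59). Its level was too low for the size rule that follows.

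No member passed the rule of size used for all miRNAs, which asks for a log2 ratio of 0.9 or more, up or down, and for a mean log2 CPM over 3. Of the 7 members, 6 were abundant enough to be considered and 0 of these were past it, against 6.85% of the 336 mature miRNAs considered (3.57% higher, 3.27% lower). No member was past it under the 4 other scalings either. There the shares of all miRNAs higher and lower were 2.38% and 4.46% under TMM and with the total of all counts, 2.98% and 4.46% (7.44% in all) with DESeq2 size factors, and 1.49% and 5.65% (7.14% in all) without the most abundant miRNAs. The share of higher among the miRNAs past the rule thus went from 52.2% to 34.8% under TMM and to 20.8% without the most abundant miRNAs. The ratio of miR-181d was reached or exceeded by 35 of the 336 miRNAs counting itself (10.4%), that of miR-181a-2-3p by 50 (14.9%), that of miR-181a-5p by 101 (30.1%) and that of miR-181b-5p by 258 (76.8%). The 6 members considered thus lay between the 5th and 95th percentiles of all ratios, -0.74 and 0.83, and their median was 0.28.

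**Figure D2:**
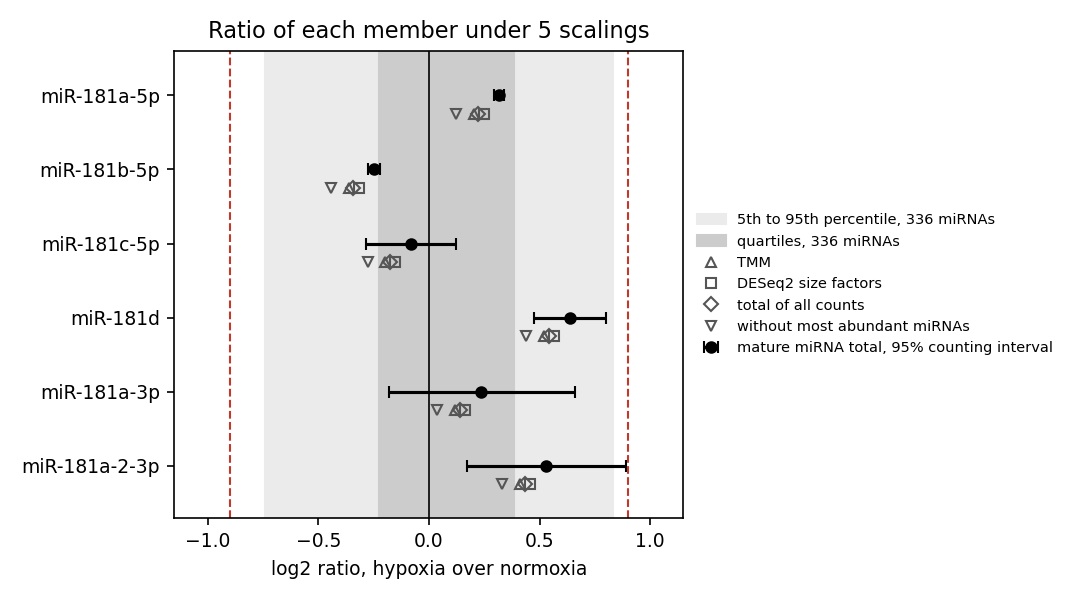
Log2 ratio of hypoxia over normoxia for the 6 members abundant enough to be considered. Black points with bars show scaling by mature miRNA totals with 95% counting intervals, open symbols the other scalings without intervals, grey bands the quartiles and the 5th to 95th percentiles of 336 miRNAs under the main scaling, and dashed lines the size rule of 0.9. Every member's point lies inside the dashed lines, with miR-181d farthest to the right (0.64) and miR-181b-5p farthest to the left (-0.25).

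Within the family the balance between miR-181a-5p and miR-181b-5p was not the same in the libraries, a comparison on which scaling has no bearing. miR-181a-5p made up 53.5% of the 5p counts under normoxia (53.0% to 54.0%) and 62.5% under hypoxia (62.2% to 62.8%). miR-181b-5p made up 44.7% (44.2% to 45.2%) and 35.3% (35.0% to 35.6%). In other words there were 1.196 counts of miR-181a-5p per count of miR-181b-5p in normoxia and 1.770 in hypoxia. The difference between their log2 ratios was 0.56 with a counting standard error of 0.018.

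The minor members also shifted against their nearest relative in sequence. Per 100 counts of miR-181b-5p, there were 2.32 counts of miR-181d in normoxia and 4.27 in hypoxia, a difference in log2 ratio of -0.88 for miR-181b-5p against miR-181d (standard error 0.083). Per 100 counts of miR-181a-5p, there were 1.46 and 1.11 counts of miR-181c-5p (difference 0.40, standard error 0.10). Within the cluster on chromosome 19, miR-181c-5p gave 0.755 counts per count of miR-181d in normoxia and 0.459 in hypoxia (difference -0.72, standard error 0.13). Of the 6 pairs of 5p members, 5 had a 95% counting interval of the difference that left out 0, the exception being miR-181b-5p with miR-181c-5p (-0.17, interval -0.37 to 0.04). The 6 pairs reuse the same 4 members, and counting intervals narrow as counts rise. Such a count was not made for pairs of other miRNAs, so it is not read as a trait of the family.

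The differences were set beside those of other miRNAs that share a seed. Over all other pairs of considered miRNAs with a common seed and different sequences, from 37 seeds, the median absolute difference in log2 ratio was 0.36, beside 0.48 for the 6 pairs of the family. The difference between miR-181a-5p and miR-181b-5p was reached in 43 of these other pairs (29.9%), and the largest of the family, between miR-181b-5p and miR-181d, in 19 (13.2%). These pairs share miRNAs and come from the same 2 libraries, so they are a description only.

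**Figure D3:**
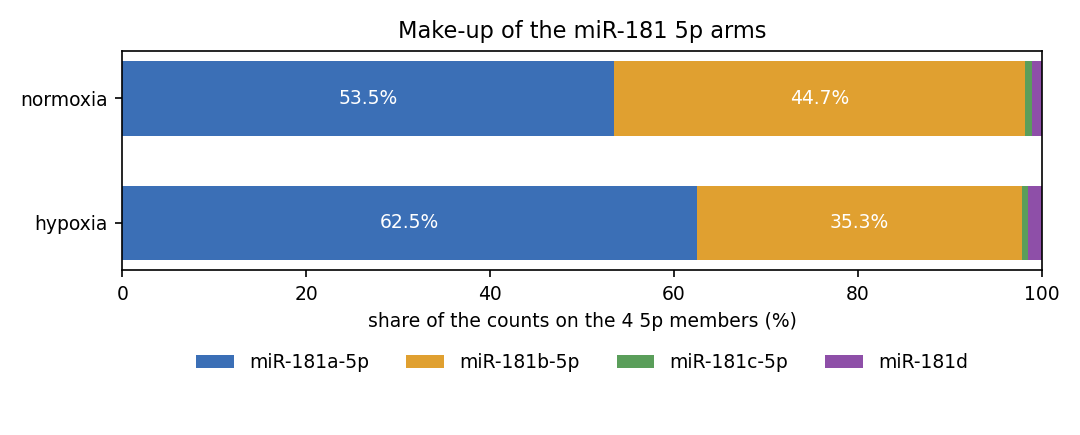
Share of each of the 4 5p members in the summed 5p counts of each library, in percent. miR-181a-5p takes 53.5% of the normoxia bar and 62.5% of the hypoxia bar, miR-181b-5p 44.7% and 35.3%, and miR-181c-5p and miR-181d the thin remainder.

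The 5p arm dominated wherever both arms could be compared. For miR-181a, with the 3p arms of its hairpins summed, the 5p arm had 99.3% of the counts under normoxia (99.1% to 99.4%) and 99.2% under hypoxia (99.1% to 99.3%), or 134 and 126 counts per count of a 3p arm. For miR-181c the share was 98.7% (96.8% to 99.7%) and 97.3% (95.6% to 98.4%). miR-181b-3p, which pairs with miR-181b-5p in MIR181B1, had the 18 and 10 counts given above, and with it the 5p share of miR-181b was 99.9% (99.84% to 99.94%) and 99.97% (99.94% to 99.98%). The 3p arms of MIR181B2 and MIR181D are not listed in the table. It holds no feature with fewer than 3 counts over both libraries, but whether these arms were among the features counted is not known. The 5p share of miR-181b thus sets 5p counts from both its hairpins against the 3p arm of MIR181B1 alone.

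For comparison, over the 124 miRNA names with both arms listed and at least 100 counts in each library, the more abundant arm had a median share of 96.2% in normoxia and 96.1% in hypoxia. A share of 99% or more was seen for 41 names in normoxia and 40 in hypoxia. The arm bias of miR-181a was therefore within the range of other miRNAs, and the intervals of the conditions overlapped for miR-181a and for miR-181c.

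The 3p arms of miR-181a are the mature sequences that tell its loci apart. Per 100 counts of miR-181a-3p (chromosome 1) there were 127 counts of miR-181a-2-3p (chromosome 9) in normoxia and 155 in hypoxia. The difference in log2 ratio between them was -0.29 (standard error 0.27), with a 95% interval from -0.83 to 0.24 that includes 0, so a different change at the loci was not detectable at this depth.

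The table also lists the 6 hairpins as features of their own, with sequences equal to those of GENCODE and counts apart from the mature miRNAs. The sources used here do not say which reads these counts come from. MIR181A1 had 26 counts in normoxia and 58 in hypoxia, and MIR181B1 had 30 and 79. On chromosome 9, MIR181A2 had 21 and 43 counts and MIR181B2 had 24 and 87. On chromosome 19, MIR181C had 0 and 6 counts, where a count of 0 allows up to 3 counts (0.664 CPM; the exact interval used for the other levels reaches 0.817 CPM), and MIR181D had 3 and 9.

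In normoxia the intervals of the 4 hairpins on chromosomes 1 and 9 overlapped. In hypoxia MIR181B2 (10.1 CPM, 8.10 to 12.5) and MIR181B1 (9.19 CPM, 7.27 to 11.4) lay above MIR181A2 (interval 3.62 to 6.73 CPM). The chromosome 19 hairpins were near the limit of detection. Scaled to mature miRNA counts, the 6 hairpins together had 23.04 CPM in normoxia and 32.79 CPM in hypoxia, a log2 ratio of 0.51 (interval 0.18 to 0.85). Under TMM, DESeq2 size factors and the total of all counts it was 0.39, 0.44 and 0.42, with intervals that leave out 0, and without the most abundant miRNAs in the totals it was 0.31 (-0.02 to 0.65), an interval that includes 0. The sum and its alternatives were chosen after seeing the data. By cluster the log2 ratio was 0.36 (-0.10 to 0.84) on chromosome 1, 0.60 (0.10 to 1.12) on chromosome 9 and 1.39 (-0.43 to 3.82) on chromosome 19. The intervals of chromosomes 1 and 19 include 0. The sum over all 506 hairpin features of the table had a log2 ratio of -0.17. That sum weighs features by their counts, and the spread of ratios over single hairpin features was not examined. MIR181B2 was at 0.93 (0.26 to 1.65) and MIR181B1 at 0.47 (-0.16 to 1.12), while mature miR-181b-5p was at -0.25. The size rule was applied to mature miRNAs only, so the value of MIR181B2, which rests on few counts, is not a call. MIR181A1 was at 0.23 (-0.46 to 0.95) and MIR181A2 at 0.10 (-0.68 to 0.93), beside 0.32 for mature miR-181a-5p.

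**Figure D4:**
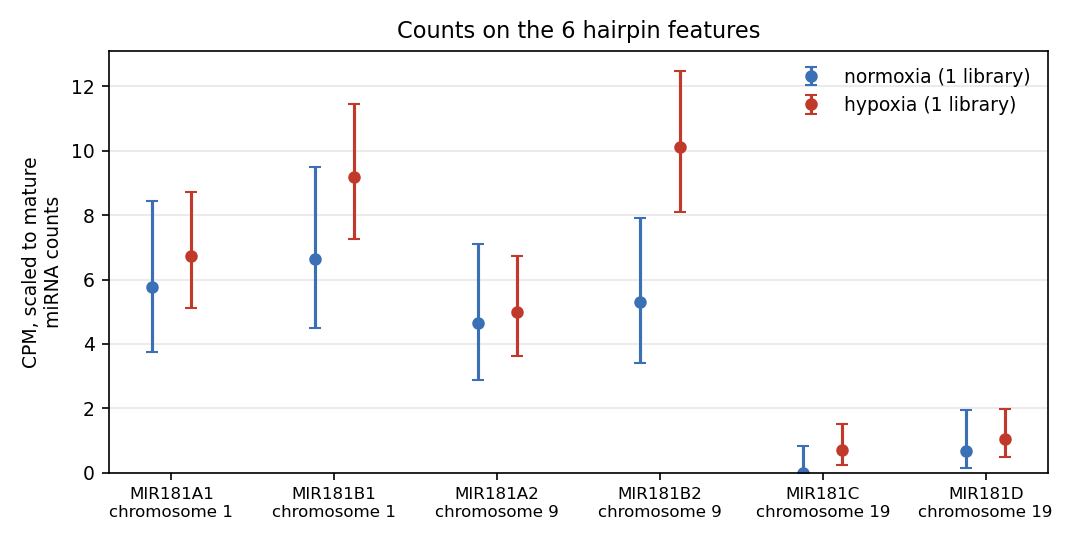
CPM, scaled to mature miRNA counts, on the 6 hairpin features in normoxia (blue) and hypoxia (red), with exact 95% counting intervals. MIR181B2 is the hairpin whose intervals lie apart (24 and 87 counts), and MIR181C and MIR181D sit near 0.

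Members of the family were set beside 10 miRNAs from the classical list of hypoxia-linked miRNAs, chosen with earlier results of these data known. miR-210, the miRNA most widely tied to HIF activity, had 4307 counts under normoxia against 22849 under hypoxia, which on the CPM scale is a log2 ratio of 1.48 (interval 1.43 to 1.52). It had the highest ratio of the 336 miRNAs and, with mature miRNA totals, was the only 1 of the 10 past the size rule. Under the 4 other scalings miR-103a-3p was past it too, as lower, with log2 ratios from -1.04 to -0.91. Of the other 9, miR-26b-5p (0.46), miR-23a-3p (0.46), miR-24-3p (0.37), miR-26a-5p (0.33) and miR-23b-3p (0.32) were above 0, while miR-107 (-0.24), miR-27a-3p (-0.24), miR-27b-3p (-0.11) and miR-103a-3p (-0.84) were below it. The median of the 10 was 0.32, beside 0.08 for all 336 miRNAs considered. Of the 10, 6 lay above 0, a share close to that of all 336 (199, or 59.2%). Of the family members on that list, miR-181a-5p (0.32) and miR-181a-3p (0.23, once named miR-213) lay above 0, and miR-181b-5p (-0.25) and miR-181c-5p (-0.08) lay below it.

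**Figure D5:**
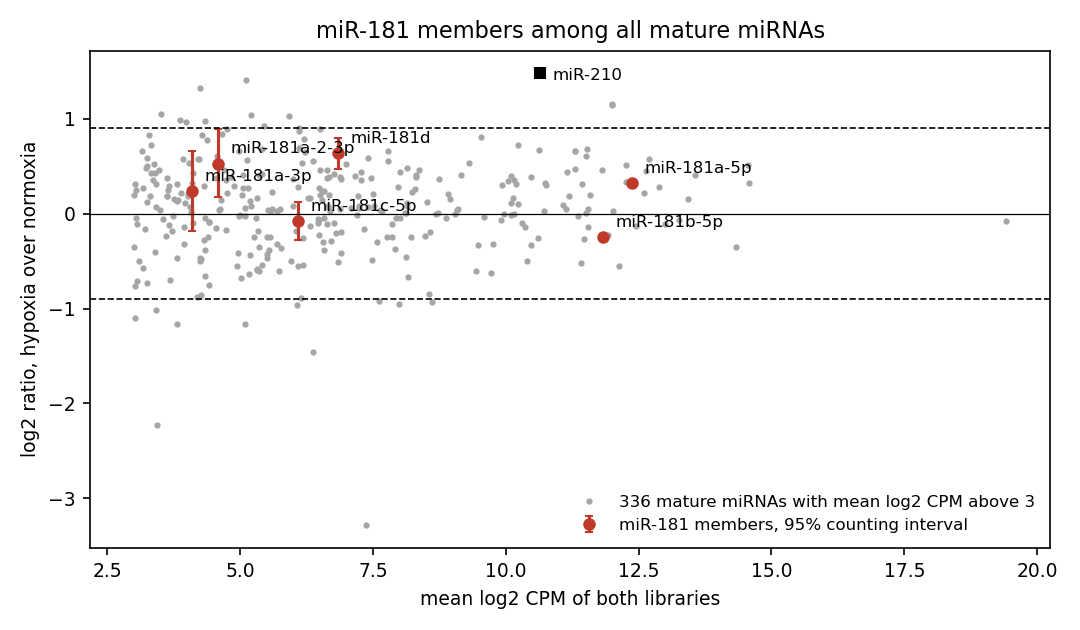
Log2 ratio of hypoxia over normoxia against mean log2 CPM for the 336 mature miRNAs considered (grey), with the 6 miR-181 members in red (bars are 95% counting intervals) and miR-210 as a black square; dashed lines mark the size rule of 0.9. The members lie within the grey cloud, between -0.25 and 0.64, and miR-210 lies at 1.48.

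The miRNAs whose levels in both libraries were nearest to each 5p member were found by Euclidean distance on log2 CPM over the 2 libraries. For miR-181a-5p the nearest was miR-26a-5p (4410 and 5545 CPM, distance 0.15), followed by let-7f-5p and miR-106b-5p. For miR-181b-5p the nearest was miR-29c-3p (4193 and 3586 CPM, distance 0.12), followed by let-7a-5p and miR-17-5p. For miR-181d it was miR-196a-5p (103 and 135 CPM, distance 0.18), followed by miR-505-3p and miR-24-3p. For miR-181c-5p it was miR-378c (70.7 and 62.3 CPM, distance 0.083), followed by miR-720 and miR-320c. With 2 libraries such likeness says only that the levels were close.

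Because the family is abundant in lymphocytes and neurons, marker miRNAs of other cell types were counted. Of 4 blood leukocyte markers, miR-142-3p, miR-142-5p and miR-150-5p were listed, and their summed level was 1.77 CPM (normoxia) and 1.16 CPM (hypoxia). The fourth, miR-223-3p, is not listed. The neural markers miR-124-3p and miR-9-5p summed to 52.1 and 53.1 CPM, of which miR-124-3p gave 3 and 6 counts. The erythroid markers miR-451a and miR-486-5p summed to 41.9 and 48.4 CPM. The muscle markers miR-133a and miR-133b had 0 counts in normoxia and 18 and 3 in hypoxia. A count of 0 in normoxia allows up to 3 counts (0.664 CPM). The other muscle markers, miR-1 and miR-206, are not listed. miR-122-5p of liver had 4 counts in either library. The 3 listed pluripotency markers of the miR-302 cluster summed to 0.664 and 1.51 CPM, while miR-302a-3p and miR-367-3p are not listed. The 7 epithelial markers, led by miR-200b-3p, had counts in both libraries and summed to 1171 and 1365 CPM. The higher sum in hypoxia rests on miR-200b-3p (880 and 1085 CPM). The median log2 ratio of the 7 was -0.07, with 3 above 0 (1 under TMM), and miR-141-3p was at -0.55 (-0.84 to -0.25). miR-205-5p, a marker of basal cells, had 12 and 15 counts.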

How the data were processed

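Small RNA was measured in 2 libraries of A549 cells, 1 per condition. Per the labels, total RNA was extracted with Trizol, ligated and amplified by PCR with a small RNA kit for SOLiD, and hg19 was used. The labels name no molecular identifiers, so PCR copies were taken to be counted as separate reads. The authors deposited raw counts per feature, without normalization. Aligner and counter: not given in the sources used here. Features whose description is a miRBase mature identifier were taken as mature miRNAs. Counts were divided by the library's mature miRNA total. Intervals at 95% cover counting error only: exact binomial for shares, exact conditional binomial for ratios, and a normal approximation on the log scale for differences between members. The intervals cover neither the error of the scaling nor differences between cultures, and with 1 library per condition no p-value was computed. Scaling factors came from edgeR version 4.0.16 (TMM) and DESeq2 version 1.42.0 in R version 4.3.3. The rest was done in Python version 3.11.15 with scipy version 1.17.1. The calculation was tested on simulated data. Loci were tied to GENCODE version 29 by the deposited hairpin sequences, and mature sequences to RefSeq by name, with the 7 members and miR-181b-3p all matched.

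The text names the members, miRNAs with the same seed, the 3 miRNAs nearest in level to each 5p member, a list of hypoxia-linked miRNAs and, from marker lists of other cell types, counts, sums and leading miRNAs. Some other markers and miR-181b-3p were named after their values were seen. The members and lists were chosen with earlier results of these data known. The alternatives were other scalings, prior counts, thinning of the deeper library, other denominators, other pairings of arms, no filter on low counts and a stricter size rule.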

Additional observations from a re-analysis of the deposited data

How the results depend on the processing

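No paired analysis was possible because a condition is represented by a single library, which also left no replicate to omit. Over 49 alternatives of the 7 members' log2 ratios, 1 lost its sign: miR-181c-3p, with 4 counts in normoxia, was at 0 when the deeper library was thinned. Scaling moved all ratios together, by construction, and 3 of the 4 other scalings changed the sign of the summed 5p arms. In place of 0.09, the sum was at -0.021 under TMM, at -0.00085 with the total of all counts, at -0.10 without the most abundant miRNAs and at 0.023 with DESeq2 size factors. In the order TMM, DESeq2, total of all counts and without the most abundant miRNAs, miR-181a-5p was at 0.20, 0.25, 0.22 and 0.12 in place of 0.32, and miR-181b-5p at -0.36, -0.32, -0.34 and -0.44 in place of -0.25. miR-181d moved beyond its interval only without the most abundant miRNAs (0.44 in place of 0.64). The same totals brought 0 into the interval of miR-181a-2-3p (-0.02 to 0.70) and took it out of that of miR-181c-5p (-0.48 to -0.07). Without the most abundant miRNAs, 5 miRNAs were higher and 19 lower by the size rule, in place of 12 and 11. Without a filter on low counts these were 85 and 110, as 788 in place of 336 were considered, miR-181c-3p (1.07) among them, and with a log2 threshold of 1 they were 8 and 7.

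With all counts as the denominator the family's 5p share was 0.624% in normoxia and 0.623% in hypoxia, in place of 0.891% and 0.951%, with mature miRNAs at 70.0% and 65.6% of all counts. Against the 3p arm of MIR181A1 alone, the 5p share of miR-181a was 99.67% and 99.69%, and against that of MIR181A2 alone 99.58% and 99.52%. Thinning took the 5p share of miR-181c in hypoxia from 97.3% to 98.7%, which rests on few 3p counts. Depth limits miR-181c-3p, MIR181C and MIR181D, for which no direction can be read.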
